A study of Rattus norvegicus with 18 samples.

Results

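Gene expression in the proximal stump of the cut sciatic nerve at 9 h after injury was compared with that at 6 h, on 3 arrays for each time, which were 6 of the 18 arrays of the time series, the others being 3 each at 0, 0.5, 1 and 3 h. All animals were adult male Sprague-Dawley rats in which a segment of the left sciatic nerve was resected under anaesthesia with trichloroacetaldehyde monohydrate, magnesium sulfate and sodium pentobarbital, and the proximal end of the nerve was then collected. The 6h and 9h groups differed in the time since resection, both were wounded, and no sham-operated animals of the same times were analysed here. The sources used here do not say whether an array held 1 rat or a pool of rats, nor the time of day of collection, so P values measure the spread between arrays, which may be technical. Each array was an Agilent one-colour array, on which a probe of 60 bases reports 1 transcript by its fluorescence intensity. A level below is log2 of that intensity minus the 75th percentile of the array, and a difference is the mean of 9h minus the mean of 6h on that scale, so that 1 is 2-fold.

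When a peripheral nerve is cut, Schwann cells, the myelinating glia of the nerve, leave the myelinating state and take on a repair state in which they make growth factors and cytokines. Early transcription factors and chemokines are switched on first, and neutrophils, monocytes and macrophages then enter the nerve to clear debris. Neuregulin-1, made from Nrg1 and read by ErbB receptors, is a growth factor that controls Schwann cell survival and myelination. The step from 6 h to 9 h falls between the early transcriptional wave and the main influx of macrophages.

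The probes on which the results turned are shown first, since the array measured these stretches of sequence and not whole genes. They are given 5′ to 3′ in lower case with their positions in the rat build rn4 as the scanner files give them, and they belong to the only called genes whose probe was above background on all 6 arrays, together with the brightest other probe of Nrg1.
Nrg1, called probe, chr16:64093883-64093942, plus strand: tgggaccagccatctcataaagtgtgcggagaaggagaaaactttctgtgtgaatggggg
Nrg1, brightest probe, chr16:64124972-64125031, plus strand: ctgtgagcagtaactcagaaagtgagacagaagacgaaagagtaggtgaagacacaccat
Etv4, chr10:90808936-90808995, minus strand: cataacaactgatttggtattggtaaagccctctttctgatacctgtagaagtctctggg
AW533310, chr7:71764847-71764906, plus strand: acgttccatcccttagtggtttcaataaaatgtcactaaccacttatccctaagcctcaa
The called Nrg1 probe lies in the sequence that encodes the EGF-like domain, the part of neuregulin-1 that binds ErbB receptors. AW533310 is the name of an expressed sequence tag for which the tables used here gave no gene symbol.

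Of 27194 gene names tested, 4 differed between 9h and 6h (0.0147%), at an unadjusted limma P under 0.01 and a Benjamini-Hochberg adjusted P under 0.05. Nrg1 and Etv4 rose (2 genes higher, 0.00735%), and AW533310 fell. The olfactory receptor gene Or4z4 was called lower as well (2 genes lower, 0.00735%), but it entered the test only through 6h, the time at which it was high. Among probes above background on all 6 arrays, 3 genes were called, 2 higher and 1 lower, which were Nrg1, Etv4 and AW533310. At an unadjusted P under 0.05, without adjustment, 1655 genes were higher at 9h (6.09%) and 1500 were lower (5.52%). The arrays of the 2 times did not overlap for 3059 genes that were higher (11.2%) and for 2347 that were lower (8.63%). The count of called genes depended on single arrays. It was 0 without 6h replicate 1 and 0 without 9h replicate 1, where 2374 and 3196 genes had an unadjusted P under 0.05. It was 42 without 6h replicate 2, 12 without 6h replicate 3, 4 without 9h replicate 2 and 2 without 9h replicate 3. With limma's array weights, which gave the least weight of the 6 to 9h replicate 3 (0.32) and the most to 9h replicate 1 (4.72), 331 genes were called higher (1.22%) and 346 lower (1.27%), among them the same 4.

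Earlier steps were fitted on the same 18 arrays. Between 3h and 6h, a comparison that shares the 6h arrays, 1617 genes were called (5.95%). Between 0h and 3h, which shares no array with 6h or 9h, 4025 genes were called (14.8%). All 0h arrays were scanned on 1 day and all 3h arrays on another, so scan day and time cannot be told apart in that count, whereas all 6h arrays and 2 of the 3 arrays of 9h share a day with 3h. Of the 2210 genes with a probe called higher at 3h than at 0h, 1 was called between 6h and 9h and their median difference was −0.04. The 1818 genes with a probe called lower at 3h had a median difference of 0.01 between 6h and 9h, and 0 of them were called. The median over all 27194 genes was 0.00. A lack of calls is not a lack of difference: the median standard error of a difference was 0.18 and the median half-width of its 95% interval 0.39. That interval lay within 1.5-fold in both directions for 13501 genes (49.6%) and within 2-fold for 20638 genes (75.9%), and for the remaining genes it reached or lay beyond 2-fold in at least 1 direction.

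**Figure D1:**
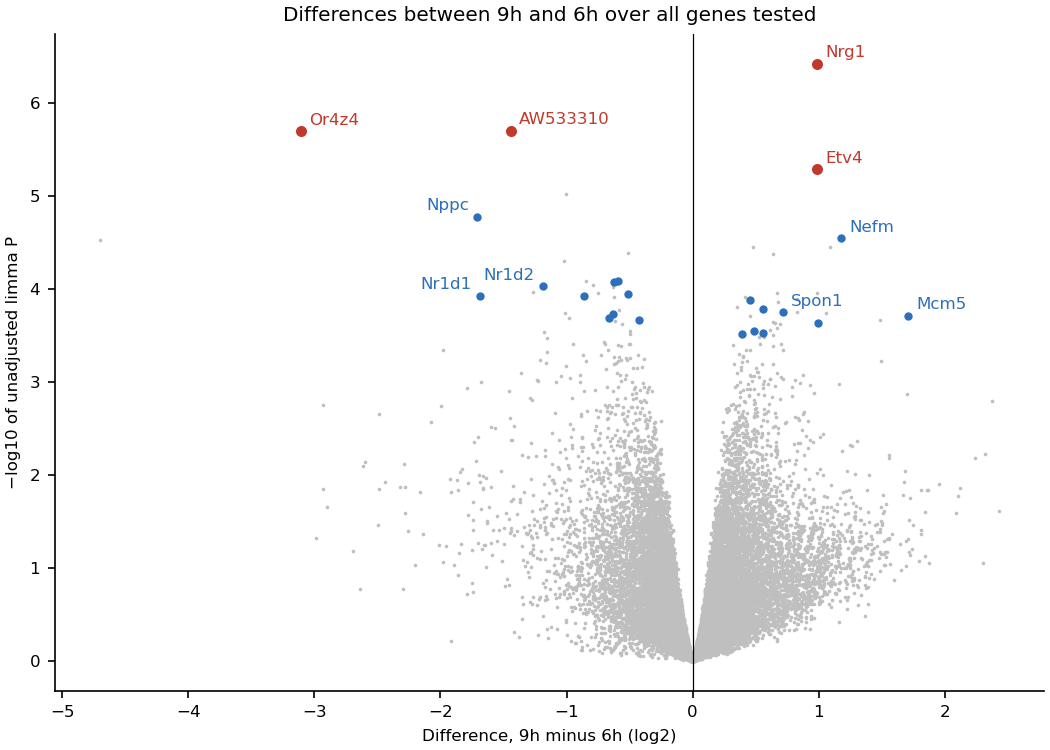
Difference between 9h and 6h (x axis, log2) against −log10 of the unadjusted limma P (y axis) for all 27194 genes (grey, brightest tested probe of each). Red points are the 4 called probes and blue points the genes with the smallest P in each direction that were above background on all 6 arrays and did not overlap between the times; Nrg1 and Etv4 lie on the right at about 2-fold, AW533310 and Or4z4 on the left.

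Nrg1 had the smallest P. Its called probe measured −2.18, −2.14 and −2.20 at 6h and −1.19, −1.43 and −0.94 at 9h. The 3 arrays of 9h were all above those of 6h, and the difference was 0.98 ± 0.11 (SE, limma, n = 3 against 3, adjusted P = 0.0121), or 1.98-fold, with a 95% interval from 0.75 to 1.22. Means of this probe had been −5.52 ± 0.15 (SD, n = 3) at 0h and −4.66 ± 0.08 at 3h, so the higher level at 9h followed a larger step between 3h and 6h. The brightest Nrg1 probe gave the same size: −0.15, −0.12 and −0.74 at 6h and 0.73, 0.43 and 0.81 at 9h, a difference of 0.99 ± 0.20 (SE, limma), which did not pass the adjustment (adjusted P = 0.135). Over 20 alternative settings the called probe stayed higher at 9h, by 0.86 to 1.11, and it was called under 12 of them, with adjusted P values from 0.000616 to 0.522. Within the scan day that holds all 3 arrays of 6h and 9h replicates 1 and 2, its difference was 0.86. The ErbB receptor chains Erbb2 and Erbb3, named here after their values were seen, were measured at −0.07 (95% interval −0.65 to 0.51) and −0.24 (−0.62 to 0.14), and neither was called.

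Etv4, a transcription factor of the ETS family that is induced by growth factor signalling in many tissues, measured −1.97, −1.80 and −1.50 at 6h and −0.83, −0.91 and −0.57 at 9h. The times did not overlap, and the difference was 0.99 ± 0.14 (SE, limma, n = 3 against 3, adjusted P = 0.0413), or 1.98-fold. Unlike Nrg1, Etv4 had been at −1.40 ± 0.12 (SD) at 0h and −0.79 ± 0.10 at 1h, so its level at 9h was close to that at 1h and its level at 6h was the lowest of the 6 means. It was called under 7 of 20 alternatives, with adjusted P values from 0.00481 to 0.839, and its difference within the shared scan day was 0.89. A second Etv4 probe differed by 0.39 with an adjusted P of 0.68. The related factor Etv5, named after its values were seen, differed by 0.07 (95% interval −0.17 to 0.30) on its brightest probe and by 0.41 (0.06 to 0.75) on a second probe, and neither was called.

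AW533310 measured −2.92, −2.91 and −2.80 at 6h and −4.44, −4.36 and −4.15 at 9h. The 9h arrays were all lower, by 1.44 on the log2 scale (difference −1.44 ± 0.19, SE, limma, adjusted P = 0.0216), so that 6h was 2.71-fold higher. Its means at 0h, 1h and 3h were −3.91, −3.29 and −3.84, and 1 of the 3 arrays of 1h lay within the range of 6h. For Or4z4, 3 of 3 arrays of 6h and 0 of 3 of 9h were well above background, so no exact difference can be given for it. As an approximate bound, 9h was set to the lowest level flagged well above background on each array, and 6h was then 2.53-fold higher. This bound is not a strict limit, and over the alternatives the measured difference ran from −3.66 to −0.67. The limma fit gave an adjusted P of 0.0216, which belongs to the measured levels (means −5.48 and −8.59), those of 9h not being well above background, and not to the bound. AW533310 was called under 9 of 20 alternatives, with adjusted P values from 0.00151 to 0.522, and Or4z4 under 10 of 19, with 0.000616 to 0.522. Olfactory receptor genes are not known for a role in nerve, and 9h replicate 3 read high on them. Over 369 olfactory receptor genes tested, the median level was −3.17 on 9h replicate 3 and between −5.15 and −4.63 on the other 5 arrays. Or4z4 went the other way, since its 9h arrays, replicate 3 included, were lower.

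**Figure D2:**
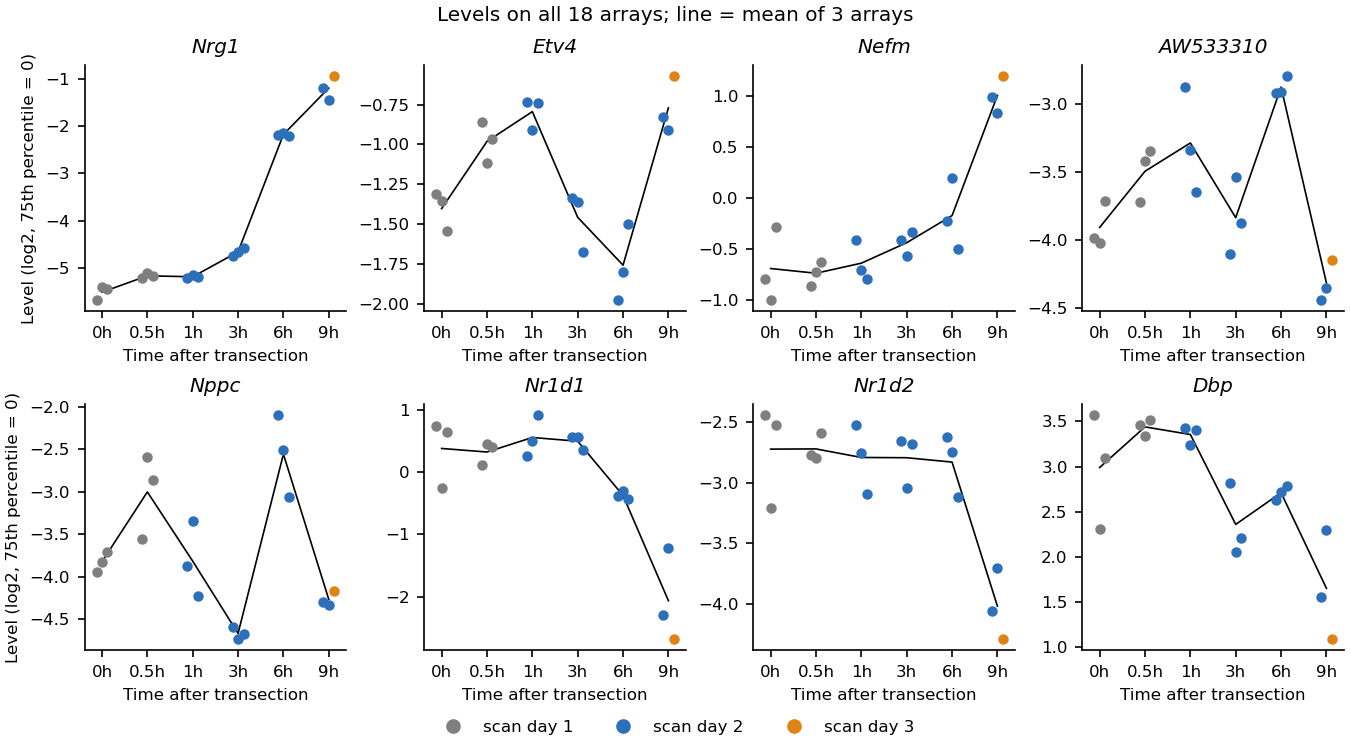
Level (y axis, log2 relative to the 75th percentile of the array) of 8 genes on all 18 arrays by time (x axis), with points coloured by scan day and a line through the means of 3 arrays. Nrg1 and Nefm are highest at 9h, Etv4 returns from its low mean at 6h, AW533310 and Nppc have a high mean at 6h, and Nr1d1, Nr1d2 and Dbp are lowest at 9h.

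Of the genes with a symbol, 1 that was higher (Etv4) and 0 that were lower had a brightest probe that was called, was above background on all 6 arrays and did not overlap between the times. The 10 genes with the smallest P in each direction among those above background on all 6 arrays without overlap therefore follow as values. Except Etv4, the probes given here did not pass the adjustment, the brightest Nrg1 probe above among them. On the higher side stood Nefm, which encodes the medium neurofilament, a structural protein of axons. It measured −0.23, 0.20 and −0.50 at 6h and 0.99, 0.83 and 1.19 at 9h, a difference of 1.18 ± 0.19 (SE, limma, adjusted P = 0.113). The light neurofilament Nefl was measured 1.01 higher (adjusted P = 0.273). Mcm5, a subunit of the helicase that licenses DNA replication, measured −5.12, −5.12 and −4.67 at 6h and −3.58, −3.83 and −2.35 at 9h, a difference of 1.71 ± 0.34 in which 9h replicate 3 was the highest array; it was 1.26 within the shared scan day. The other genes were Spon1, an extracellular matrix protein of growing axons (0.72 on its brightest probe and 0.24 ± 0.32 on a second), Ugt1a2, a glucuronosyltransferase whose family shares exons (0.56), Ap1s1, a clathrin adaptor subunit (0.56), Cfl1, the actin-severing protein cofilin (0.49), Top1mt, the mitochondrial topoisomerase (0.46), and Trim45, a ubiquitin ligase (0.39). Their adjusted P values lay between 0.13 and 0.144.

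On the lower side, Nppc, the precursor of C-type natriuretic peptide, had the smallest P. It measured −2.10, −2.51 and −3.06 at 6h and −4.30, −4.33 and −4.17 at 9h, a difference of −1.71 ± 0.27 (SE, limma, adjusted P = 0.0893), so that the measured level at 6h was 3.26-fold that at 9h. Its means at 0h and 3h were −3.82 and −4.67, and the mean at 6h, −2.56, was the highest of the 6 times. Kcnk2, a background potassium channel, was measured at −0.66, after means of 2.34 at the 0h point and 2.12 at the 3h point, with 1.32 and 0.65 at 6h and 9h. The adhesion gene Ctnna3, an alpha-catenin, and Vstm4, which encodes a cell surface protein, were measured at −0.86 and −0.63. The other 3 tested Ctnna3 probes were at −0.62, −0.47 and −0.31. The secreted proteins Crispld2 and Smoc2 were measured at −0.63 and −0.43 (−0.23 on a second Smoc2 probe), with means of 5.02 and 5.66 at 6h and 4.40 and 5.23 at 9h on their own probes. Rell1, of the RELT receptor family, and Clybl, a mitochondrial enzyme, were measured at −0.59 and −0.51. These 7 genes had adjusted P values of 0.13 or 0.135, and the remaining pair were the clock genes Nr1d1 and Nr1d2.

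This pair belongs to the circadian clock. Nr1d1 and Nr1d2 encode the REV-ERB nuclear receptors, which repress Bmal1, and Dbp and Bhlhe41 are further outputs of the CLOCK and BMAL1 activators, which bind the E-box sequence. Nr1d1 measured −0.39, −0.31 and −0.44 at 6h and −2.30, −1.22 and −2.67 at 9h, a difference of −1.69 ± 0.32 (SE, limma, adjusted P = 0.13). Nr1d2 measured −2.63, −2.75 and −3.12 at 6h and −4.06, −3.71 and −4.29 at 9h, a difference of −1.19 ± 0.22 (adjusted P = 0.13). For both genes the 9h arrays lay below all 6h arrays, and the lowest array was 9h replicate 3. Dbp was at −1.06 ± 0.31 (adjusted P = 0.276) and Bhlhe41 at −0.87 ± 0.27 (adjusted P = 0.286), again without overlap. The mean level of Nr1d1 had been 0.38 at 0h and 0.49 at 3h, and that of Nr1d2 −2.72 and −2.79.

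Of 19 clock genes tested, 0 were called by limma, 4 were lower with an unadjusted P under 0.05 and 0 were higher, and 11 had a negative difference. Their median difference was −0.17, but it was 0.05 without 6h replicate 1 and 9h replicate 3, so the median had no settled direction. Bmal1, which REV-ERB proteins repress, was measured at 0.38 (95% interval −0.17 to 0.92) and Nfil3, a repressor at the same sites as Dbp, at 0.52 (−0.15 to 1.19), the highest of the list. With array weights, under which limma called 346 of all 27194 genes lower (1.27%), Nr1d1, Nr1d2 and Bhlhe41 were among them. Their adjusted P values were 0.0165, 0.0137 and 0.0495. Over the 20 alternatives these reached 0.972 for all 3 genes. Within the shared scan day the differences were −1.38 for Nr1d1, −1.05 for Nr1d2, −0.78 for Dbp and −0.83 for Bhlhe41.

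The promoter windows of the clock genes, 250 bases before to 50 after each start in RefSeq (build GRCr8), were searched for the E-box CACGTG, which reads the same on both strands. It was present in 6.42% of all 33469 windows, a share counted by window. The clock genes were counted by gene, where any window of a gene sufficed, so the counts are in unlike units. Of 17 clock genes with 19 windows, 5 had the E-box: Bhlhe40, Bhlhe41, Ciart, Nr1d1 and Tef. The windows of the pair with low values at 9h are shown, with the E-box in capitals. Nr1d1 has a second start whose window lacked these letters, as did those of Nr1d2 and Dbp, which says only that the letters are not in these windows.
Nr1d1, chr10:84229405-84229704, minus strand: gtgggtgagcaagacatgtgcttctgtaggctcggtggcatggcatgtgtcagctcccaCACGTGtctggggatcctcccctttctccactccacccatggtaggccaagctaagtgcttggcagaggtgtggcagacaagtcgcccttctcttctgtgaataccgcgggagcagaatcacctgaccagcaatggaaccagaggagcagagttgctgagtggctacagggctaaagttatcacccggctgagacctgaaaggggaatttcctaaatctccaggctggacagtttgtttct
Bhlhe41, chr4:180569306-180569605, minus strand: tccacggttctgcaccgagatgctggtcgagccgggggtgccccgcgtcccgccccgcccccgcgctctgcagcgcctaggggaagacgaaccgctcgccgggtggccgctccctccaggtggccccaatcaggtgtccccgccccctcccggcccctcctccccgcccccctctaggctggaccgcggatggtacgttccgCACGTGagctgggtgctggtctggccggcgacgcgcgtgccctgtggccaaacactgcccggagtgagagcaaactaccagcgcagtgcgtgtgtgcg

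**Figure D3:**
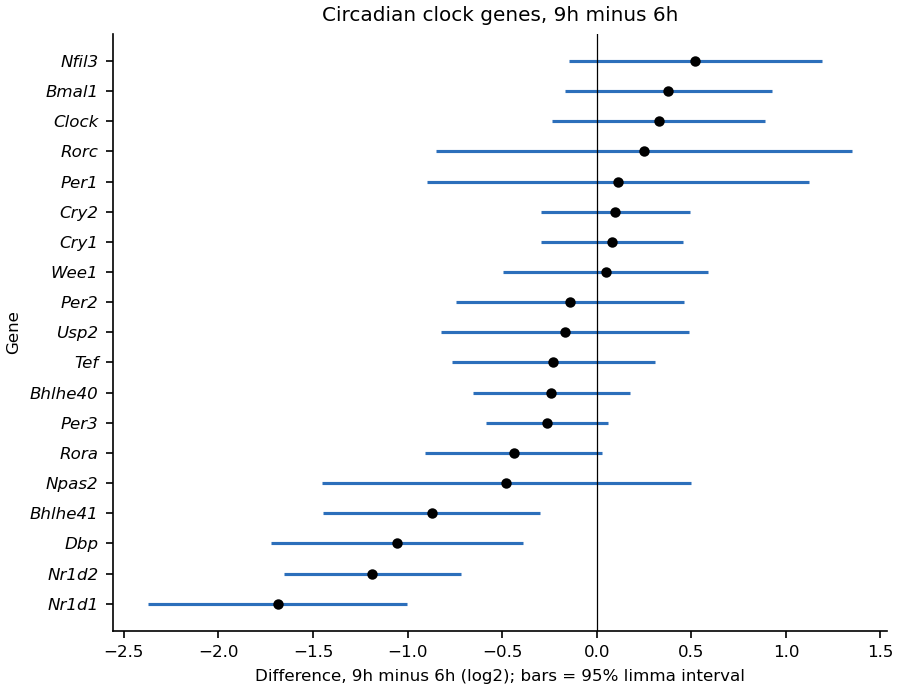
Difference between 9h and 6h (x axis, log2) for the 19 circadian clock genes tested (y axis), with bars for the 95% limma interval. The intervals of Nr1d1, Nr1d2, Dbp and Bhlhe41 lie below 0 and those of the other 15 genes include 0.

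Cell cycle genes were next. The MCM proteins form the replicative helicase, and besides Mcm5 the subunits Mcm6, Mcm2 and Mcm7 were measured higher at 9h on every array, by 0.84 ± 0.23, 0.56 ± 0.20 and 0.44 ± 0.18 (SE, limma, adjusted P = 0.247, 0.349 and 0.396). Mcm4, of the same helicase, was at −0.14. The licensing factor Cdt1 was measured at 0.64 and the cyclin Ccnd1 at 0.36, whereas the mitotic kinase Aurkb was at −0.54. Of 27 cell cycle genes tested, limma called 0. There were 6 higher and 1 lower at an unadjusted P under 0.05, with a median difference of 0.03.

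Immediate early genes were measured mostly lower and the cytokines in both directions. Of 26 immediate early transcription factors, 20 were lower at 9h, and 11 of them without overlap of the arrays, against 8.63% of all genes. The list had 6 members lower and 0 higher at an unadjusted P under 0.05, where 5.52% of all genes were lower and 6.09% higher. Limma called 0, and the median was −0.21, or −0.23 within the shared scan day. The members with the largest differences were Nr4a3 at −0.77 and Egr4 at −0.60, with errors of 0.42 and 0.71. Members with smaller errors included Klf10 (−0.49 ± 0.14), Ier3 (−0.38) and Atf3 (−0.27). Jund was at −0.29 on its brightest probe and at 0.11 on another of the same strand, so it had no settled direction. A further Jund probe, placed on the opposite strand, was at 0.07. Csf2, which encodes the growth factor GM-CSF, measured −2.32, −2.94 and −2.93 at 6h and −4.67, −4.20 and −3.37 at 9h. Csf3, encoding G-CSF, measured −3.18, −4.24 and −4.43 at 6h and −4.99, −5.43 and −5.32 at 9h. These are differences of −1.35 ± 0.42 and −1.29 ± 0.33 (SE, limma, adjusted P = 0.293 and 0.213), from means at 0h of −6.96 and −8.54 and at 3h of −2.83 and −2.90. The other 26 cytokine genes and decoys tested lay between −0.38 and 0.49, among them Il33 at 0.41 and Tgfb1 at 0.35, and the list median was 0.09.

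Among 27 chemokines, 12 were lower and 15 higher, and limma called 0, with 4 lower and 1 higher at an unadjusted P under 0.05. Cxcl11, an interferon-induced T cell attractant, was at −1.53 and Cxcl14 at 0.97, the largest differences in each direction. Cxcl14 had means of 1.36 at 0h, 4.70 at 6h and 5.66 at 9h, and the neutrophil attractant Cxcl1 had means of −1.65, 3.92 and 3.25, a difference of −0.68 ± 0.20 between 6h and 9h. Ccl17 was at −0.75 and Ccl11 at −0.79.

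Macrophage and monocyte markers were measured higher in 25 of 29 genes, 5 of them at an unadjusted P under 0.05 and 0 lower, with 0 called by limma and a median difference of 0.21. Msr1, a scavenger receptor, measured −0.28, −0.91 and 0.13 at 6h and 0.46, 0.36 and 1.22 at 9h, a difference of 1.03 ± 0.30 (SE, limma, adjusted P = 0.27). Cx3cr1, the fractalkine receptor, was at 0.67 ± 0.30, Cd14, the lipopolysaccharide co-receptor, at 0.67 ± 0.24, Gpnmb at 0.64 ± 0.14 and the Fc receptor Fcgr2b at 0.63 ± 0.25. The mean level of the list was 1.65, 1.52 and 1.90 on the 6h arrays and 1.88, 1.96 and 2.08 on the 9h arrays, which overlap. In bulk tissue, more cells of a type and more RNA per cell cannot be told apart. Neutrophil markers had a median of 0.17, with 3 of 21 higher at an unadjusted P under 0.05, Mmp9 at 1.04 and Itgam at −0.91. T and NK cell genes were lower in 10 of 16 and higher in 6, with a median of −0.10 and 1 higher and 0 lower at an unadjusted P under 0.05. The largest differences were Cd8a at 1.56 ± 0.48 and Cd2 at 0.79 ± 0.57, and the lowest member was at −0.66. Of 10 mast cell genes, 9 were higher, but the 2 tested probes of Kit, the stem cell factor receptor, went opposite ways (1.07 ± 0.43 and −0.94 ± 0.45). Hdc, the histamine-forming enzyme, was at 0.47, and the list median went from 0.13 to 0.04 within the shared scan day.

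All 27 Schwann cell and myelin genes tested were well above background on all 6 arrays, with a mean level between 2.31 and 2.62, as were all 26 endothelial and 8 erythroid genes and 15 of 19 skeletal muscle genes. The median difference of the Schwann cell and myelin genes was −0.07, with 2 lower and 0 higher at an unadjusted P under 0.05, and limma called 0. Pou3f1, a transcription factor of promyelinating Schwann cells, measured −0.37, −0.33 and −0.33 at 6h and −0.66, −0.84 and −1.09 at 9h (difference −0.52 ± 0.14, SE, limma, adjusted P = 0.257). S100b was at −0.43, with its lowest value on 9h replicate 3, and at 0.05 within the shared scan day, which leaves that array out. Of 28 repair Schwann cell genes, Nrg1 was called, and the list median was 0.04. The low-affinity neurotrophin receptor Ngfr was measured at 0.55 ± 0.18, the matrix protein Tnc at 0.73 ± 0.28 and neurotrophin-3, Ntf3, at −0.79 ± 0.26. Cholesterol synthesis genes, which supply myelin lipid, had 0 of 26 members at an unadjusted P under 0.05, 0 called by limma and 25 with an interval within 2-fold, with the transcription factor Srebf2 at 0.34. Fatty acid synthesis genes had a median of −0.13, with Me1 at −0.38 and Acly at −0.28.

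Genes of protein synthesis and turnover were measured slightly higher. Of 88 cytosolic ribosomal protein genes, 68 were higher, with 12 higher and 0 lower at an unadjusted P under 0.05, but the median was only 0.08. Rps15 was at 0.59 ± 0.16 (0.31 ± 0.09 on a second probe) and Rpl3l, a muscle form, at −0.72 ± 1.32. Of 26 ribosome biogenesis genes, 22 were higher, 8 at an unadjusted P under 0.05, with a median of 0.14, which was 0.04 within the shared scan day. Its members included the rRNA methyltransferase Fbl at 0.28, Noc2l at 0.35, Bop1 at 0.47 and Gar1 at −0.51. Of 37 proteasome subunits, 34 were higher, 5 at an unadjusted P under 0.05, with a median of 0.10 and Psmd3 at 0.61 and Psmb10 at 0.32. Limma called 0 members of these 3 lists. Mitochondrial respiratory chain genes had a median of −0.02, and the members farthest from 0 were the muscle forms Cox8b at −0.74 and Cox6a2 at −0.43, with errors of 2.55 and 0.91. The other 2 Cox8b probes, which the positions place on the opposite strand, were at −0.07 and 0.36.

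Birc2, Birc3 and Tnfrsf1a, on which the study turned, were not called. Birc2 and Birc3 encode inhibitors of apoptosis that act in signalling by TNF receptors, and Tnfrsf1a encodes TNF receptor 1. Birc2 measured 0.41, 0.20 and 0.24 at 6h and 0.29, 0.22 and 0.23 at 9h, a difference of −0.04 with a 95% interval from −0.23 to 0.16. Birc3 was at −0.16 (−0.69 to 0.38) and Tnfrsf1a at −0.12 (−0.44 to 0.21), so a 2-fold difference lay outside all 3 intervals. Single arrays moved these small values: Birc3 was at −0.06 without 9h replicate 2 and −0.24 without 9h replicate 3, and Tnfrsf1a at −0.05 without 6h replicate 2. All 32 genes of the TNF receptor, NFkB and apoptosis list had intervals within 2-fold, the median was 0.01, and the largest differences were Cflar, a caspase-8 inhibitor, at −0.39 ± 0.13 and Fadd, a death receptor adaptor, at 0.36 ± 0.14.

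**Figure D4:**
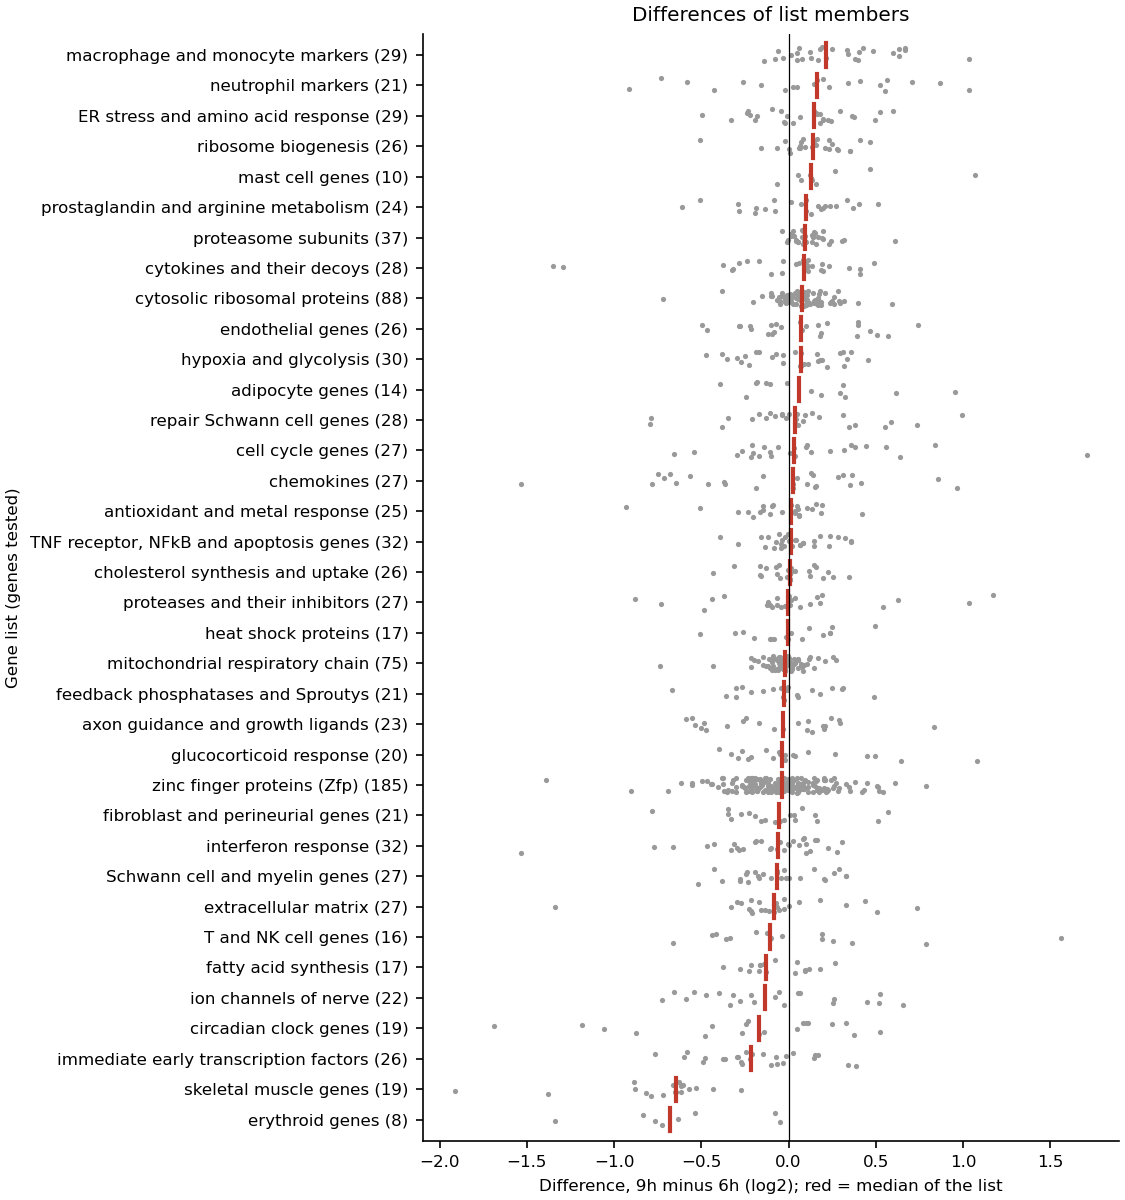
Difference between 9h and 6h (x axis, log2) of each member (grey points, jittered in height) of 36 gene lists (y axis, with the number of genes tested), and the median of each list (red). Medians lie between −0.21 and 0.21 except for skeletal muscle (−0.64) and erythroid genes (−0.68).

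Lists of tissues beside the nerve differed between arrays of the same time. All 19 skeletal muscle genes had a negative difference, with a median of −0.64, but 0 had an unadjusted P under 0.05 and the median standard error was 2.42. Their mean level was 4.48, −3.29 and 1.82 on the 6h arrays and 2.83, −3.76 and 1.68 on the 9h arrays, so both times held arrays high and low in muscle RNA. The median was 0.36 without 6h replicate 1 and 9h replicate 3 and 2.15 with array weights, against −1.31 within the shared scan day. The largest differences were Myh4 at −1.91 ± 3.70 and Myl1 at −1.38 ± 2.29. Erythroid genes were lower in 8 of 8 with a median of −0.68, and their mean level was 1.70, 2.29 and 0.54 at 6h and 0.53, 1.16 and 0.99 at 9h. At an unadjusted P under 0.05, 1 of the 8 was lower and 0 higher, and 1 was called lower with array weights, as were 1.27% of all genes. Slc4a1, the anion exchanger of red cells, was at −0.84 ± 0.69. Interferon response genes had mean levels of 1.40, 1.17 and 0.89 at 6h and 1.70, 0.79 and 0.54 at 9h. Their median of −0.06 became 0.14 within the shared scan day, 0.39 with array weights and 0.26 without 6h replicate 1 and 9h replicate 3. Bst2 was at −0.77, or −0.47 with array weights.

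**Figure D5:**
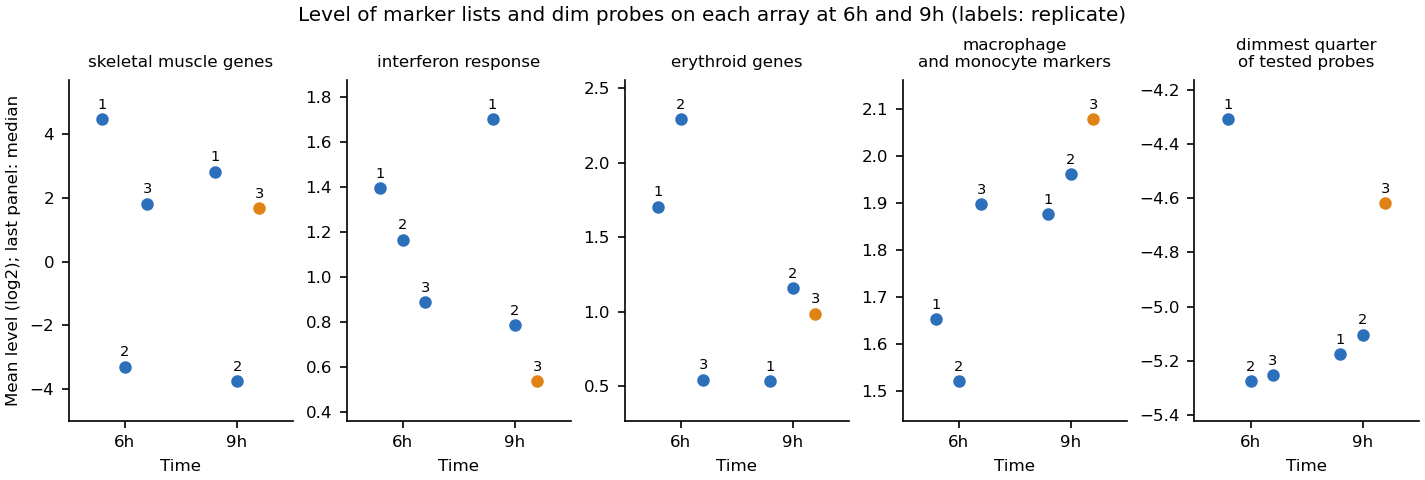
Mean level (y axis, log2; median level in the last panel) of 4 marker lists and of the dimmest 25% of tested probes on each array of 6h and 9h (x axis), labelled by replicate; orange marks 9h replicate 3, scanned on another day. Muscle RNA ranged from −3.76 to 4.48 across arrays of both times, and 6h replicate 1 and 9h replicate 3 were highest on dim probes.

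Over all genes, 6.09% were higher and 5.52% lower at an unadjusted P under 0.05. The other lists had 0 called members, and their counts at that P were as follows. Extracellular matrix genes had 5 lower and 2 higher of 27, with Hapln1 at −1.34 and Tnc as above, and fibroblast and perineurial genes had 5 lower and 1 higher of 21, among them Lum at −0.33, Dcn at −0.27 and Krt19 at 0.57. Endothelial genes had 4 higher and 0 lower of 26, with a median of 0.07 over 14 that were measured higher and 12 lower. The largest differences were Tie1 at 0.74 and Robo4 at 0.57, and the lowest member was at −0.50. Genes of ER stress and the amino acid response had 6 higher and 2 lower of 29, with Asns at 0.60, Creld2 at 0.52, Sdf2l1 at 0.38 and Psat1 at −0.50. Hypoxia and glycolysis genes had 1 higher and 3 lower of 30, with Bnip3 at −0.47 and Pfkl at 0.46. Heat shock proteins had 2 higher and 0 lower of 17, with Hspb8 at −0.51 and Stip1 at 0.49. Zinc finger proteins of the Zfp series had 4 higher and 13 lower of 185, with Zfp521 at −1.39 and Zfp494 at −0.90.

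Prostaglandin and arginine metabolism had 1 higher and 2 lower of 24, among them Sat1, the enzyme that acetylates polyamines, which measured 4.87, 4.80 and 4.77 on the 6h arrays and 4.17, 4.42 and 4.02 at 9h (difference −0.61 ± 0.12, SE, limma, adjusted P = 0.135), and Ptgis at 0.51. Ion channels of nerve had 2 higher and 3 lower of 22, with Scn4b at −0.73 ± 1.24 and Gria2 at −0.66. Axon guidance and growth ligands had 1 higher and 2 lower of 23, with Sema4a at 0.83 and Robo2 at −0.59. Proteases had 2 higher and 1 lower of 27, with Mmp12 at 1.17 ± 0.93 and Mmp9 as above. Feedback phosphatases and Sproutys had 1 higher and 1 lower of 21, with Dusp4 at −0.67 and Cish at 0.49, and glucocorticoid response genes had 0 higher and 1 lower of 20, with Zbtb16 at 1.08 ± 0.89 and Angptl4 at 0.65. Antioxidant and metal response genes had 0 of 25 in either direction, with Gclm at −0.93 ± 0.81 and Hamp at −0.51, and adipocyte genes 0 of 14, with Pck1 at 0.96 ± 0.61. Ucp1 was well above background on 3 arrays of 9h and 0 of 6h, so no exact difference can be given for it.

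The values of many of these single list members moved by over 1.5 times without 1 array. Without 6h replicate 3, Zfp521 was at −0.40, Hapln1 at −0.41, Asns at 0.20 and Dusp4 at −0.08. Without 6h replicate 1, Cxcl11 was at −0.74, Gria2 at −0.27, Ntf3 at −0.43, Aurkb at −0.34, Hspb8 at −0.15, Hdc at 0.25, Tie1 at 0.48 and Zbtb16 at 1.67. Without 6h replicate 2, Slc4a1 was at −0.36, Hamp at −0.31, Krt19 at 0.34 and Mmp12 at 0.72. Itgam was at −0.09 without 9h replicate 1 and at −1.78 without 9h replicate 3, since its 9h arrays (−2.16, −0.59 and 1.23) lay on both sides of those of 6h. Zfp494 was at −0.56 without 9h replicate 2.

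The array of 9h scanned on another day was among these. Without 9h replicate 3, Cx3cr1 was at 0.29, Cd2 at 0.31, the brightest Kit probe at 0.54, Bop1 at 0.29, Pfkl at 0.21, Bnip3 at −0.27, Cish at 0.32, Ptgis at 0.33, Robo2 at −0.38, Robo4 at 0.35 and Nfil3 at 0.30. Some were near background: Gria2 was well above it on 2 of 3 arrays at 6h and 1 of 3 at 9h, Zfp494 on 3 and 1, Gclm and Myh4 on 3 and 2, and the brightest Cox8b probe on 2 and 2.

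The arrays themselves differed in 2 respects that touch these values. All 6h arrays were on 1 slide, 9h replicates 1 and 2 on another and 9h replicate 3 on yet another, so slide and time cannot be told apart, and 9h replicate 3 alone was scanned on a different day. Between 73.4% and 93.5% of spots were well above background, the most on 6h replicate 1, and pairs of the 6 arrays correlated at 0.966 to 0.993 across probes, lowest for 9h replicate 3. The dimmest 25% of tested probes had a median level of −4.31 on 6h replicate 1 and −4.62 on 9h replicate 3, and between −5.28 and −5.10 on the other 4 arrays. Within the shared scan day, list medians changed sign for interferon response genes (0.14), cytokines (−0.08), chemokines (−0.06), fatty acid synthesis (0.02) and antioxidant genes (−0.026). So did those of endothelial genes (−0.0059), cell cycle genes (−0.0062) and ion channels (0.005). The medians of neutrophil markers and of ER stress genes were 0.05 and 0.06. With the scan day as a block 2 genes were called, and with the slide as a random block 4. With normexp background correction 7 were called and without a filter on dim probes 4.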

How the data were processed

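Total RNA of the proximal nerve segments was hybridised to Agilent one-colour rat arrays. The deposited scanner files hold fluorescence intensity per spot as processed by the authors. Their headers give 10.5.1.1 as the grid placement version and rn4 for probe positions. The paper names another version number for the Feature Extraction software. A deposited table of log2 values by the authors, whose scale and centring are not stated in the sources used here, served as an alternative. Controls and flagged outliers among the spots were dropped, spots of a probe were averaged on the log2 scale, and each of the 18 arrays was shifted to its 75th percentile. A probe was tested if all 3 arrays of any 1 time were well above background for it (32109 of 41012 probes). limma 3.58.1 in R 4.3.3 fitted 1 mean for each of the 6 times, without a block, and the contrast 9h minus 6h was called at an unadjusted P under 0.01 and a Benjamini-Hochberg adjusted P under 0.05. A gene was called if any of its probes was, and its reported values come from its tested probe with the highest mean. The script was tested on simulated data. Gene names came from the RefSeq table by accession (16444 probes), symbol (3701) or synonym (1092), and 19775 probes kept the file's name. Named genes were all listed genes that met the full rule and, since fewer than 5 did, the 10 with the smallest P in each direction, every called list member or otherwise the 2 members with the largest difference of each list, and Birc2, Birc3 and Tnfrsf1a. Nefl, Dbp, Bhlhe41, Bmal1, Nfil3, the other MCM genes and the further list members given with values were chosen after their values were seen. Values of 2 single list members are not reported here. The comparison and the gene lists were chosen with earlier results of these data known. Sequences of probes came from the scanner files and promoters from RefSeq (GRCr8). The normexp alternative (offset 50) was fitted on all spots but outliers and 6 spots with background over 100 units above the signal, on which it failed otherwise.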

Additional observations from a re-analysis of the deposited data

How the results depend on the processing

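The counts of called genes were small and rested on the setting. From 4 called (2 higher, 2 lower), leaving out 1 array at a time gave 0 to 42 called, 0 to 8 higher and 0 to 38 lower, and leaving out 6h replicate 1 and 9h replicate 3 together, chosen after seeing the data, gave 1, 0 and 1. Quantile normalization, the deposited matrix, only the 6 arrays and only arrays of the shared scan day each gave 0 called, 0 higher and 0 lower by limma, with 4208, 4170, 2507 and 1486 genes at an unadjusted P under 0.05. Array weights gave 677, 331 and 346, and an unadjusted P under 0.01 alone 926 (466 in the count of genes higher at 9h than at 6h and 461 in the count of genes lower at 9h than at 6h, with a gene whose probes went both ways in both). The scan day as a block and a trend with a robust prior gave 2, 1 and 1 each. Normexp gave 7 called and 4 higher, namely Nrg1, Etv4, Nefm and a transcript without a symbol, with AW533310, Tac1 and a second Crem probe lower. Centring on the median, testing dim probes too and the highest-mean probe alone gave 1 higher, and the filter on all 6 arrays 1 lower. The slide as a random block (correlation −0.009) kept 4.

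The replicate numbers did not pair the arrays, since deviations of same-numbered arrays correlated at −0.033, 0.468 and −0.138, and the fit with the replicate number as a block gave 2 called, 1 higher and 1 lower.

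Of 123 named genes, 112 kept their direction under all 20 alternatives run. Array weights turned Erbb2 (0.062), Birc2 (0.023), Rpl3l (0.52), Cox8b (2.12), Myh4 (2.43), Myl1 (1.15), Cox6a2 (0.046) and Scn4b (0.69). The scan day as a block and the shared scan day alone turned Erbb2 (0.087), Gclm (0.21) and S100b (0.048), as did leaving out 9h replicate 3. Leaving out 6h replicate 1 turned Birc2 (0.028), Rpl3l (0.42), Cox8b (1.36), Myh4 (0.41), Mcm4 (0.035), Myl1 (0.28), Cox6a2 (0.30) and Scn4b (0.32), and leaving out 9h replicate 2 turned Cox8b (1.57), Myh4 (2.38), Myl1 (0.82) and Cox6a2 (0.13). Leaving out 6h replicate 1 and 9h replicate 3 turned Erbb2 (0.14), Gclm (0.35), Birc2 (0.037), S100b (0.020), Rpl3l (0.23), Cox8b (0.33) and Scn4b (0.39). The lowest values with 1 array left out were −0.075 for Birc2, −0.93 for Cox6a2, −3.49 for Cox8b, −5.39 for Myh4, −3.34 for Myl1, −1.76 for Rpl3l and −1.59 for Scn4b (6h replicate 2), −0.154 for Erbb2, −1.60 for Gclm and −0.76 for S100b (9h replicate 2), and −0.29 for Mcm4 (9h replicate 3). The cause was not tested.

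Across all tested probes, the median error of a difference was 0.40 in the dimmest 25% and 0.12 in the brightest 25%.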

Other observations

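Tac1, the precursor of the neuropeptide substance P, and Crem, a cAMP-responsive transcription factor, were called between 6h and 9h under normexp background correction and are named here for that reason. Tac1 measured −2.26, −2.71 and −2.89 at 6h and −3.97, −3.48 and −3.88 at 9h, a difference of −1.16 ± 0.25 (SE, limma, adjusted P = 0.151), after means of −5.47 at 0h and −2.59 at 3h. Its adjusted P ran from 0.0204 to 0.972 over the alternatives. The brightest of 3 Crem probes was at −0.28 ± 0.19, and the other 2 were at −0.46 and −0.76, so the probes differed in size and shared their sign. The value of the brightest probe was −0.13 without 6h replicate 1, −0.14 without 9h replicate 2, −0.44 without 6h replicate 3 and −0.43 without 9h replicate 3.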
